A study of Homo sapiens with 4 samples.

Results

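The kinesins are the motor proteins that walk along microtubules, and 41 kinesin genes were followed among the 18132 genes measured in glioma cells given miR-490. They were taken by symbol, as every gene named KIF or KIFC with a number that had a probe set assigned to no other gene. The members and the gene lists below were chosen with earlier results of these data known. These 41 genes were divided by a fixed list into 12 mitotic kinesins and 29 others, which are mostly motors of cargo transport, cilia and microtubule ends. The others are not all without a part in mitosis, as the kinesin-13 motors KIF2A and KIF2B were counted among them. KIF4B shares its probe set with KIF4A and was not analysed here. The cells were U87MG, an established human glioma cell line. One group was transfected with the miR-490 overexpression vector PC-490 and the other with its control vector PCDNA, named PCDNA3.1 (+) in the series title, so both groups carried a plasmid. RNA was taken 48 h after transfection, and each group had 2 PrimeView arrays, which read the 3′ ends of transcripts. Whether replicates came from separate cultures is not stated in the labels; the p-values therefore rest on a spread between arrays that may be technical.

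A kinesin couples ATP hydrolysis in a conserved motor domain to steps along a microtubule or, in some families, to the removal of tubulin from its end. Cells make the mitotic members mainly in G2 and mitosis, to separate spindle poles, move chromosomes and complete cytokinesis, whereas the transport members carry vesicles, mitochondria and other cargo throughout the cycle. Periodic genes of G2 and mitosis are known to be controlled through a promoter element called CHR, bound by the DREAM and B-MYB complexes, often with CCAAT boxes bound by NF-Y close by. In gliomas and other tumours, several mitotic kinesins are known as proliferation-associated genes.

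The 2 mature strands of the microRNA are shown because one of them, or both, is what the vector was built to supply; the capitals mark the seed, bases 2 to 8, with which a microRNA pairs with its targets. Levels of the microRNA were not analysed here, so its overexpression was not checked. The sequences are those of RefSeq, build GRCh38.p14.
hsa-miR-490-3p, chr7:136903242-136903263, plus strand: cAACCUGGaggacuccaugcug
hsa-miR-490-5p, chr7:136903205-136903224, plus strand: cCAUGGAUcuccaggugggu
The seeds of these strands differ, and no site for either was searched in kinesin messages, since their 3′ ends were not used here.

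Promoter sequence, which uses no array value, was compared first. RefSeq windows of 300 bases, 250 before and 50 after a start site, were at hand for all 12 mitotic kinesins and for 21 of the others. A CHR, spelled TTTGAA or TTTAAA on either strand, occurred in 11 of 12 mitotic windows (91.7%) and in 2 of 21 other kinesin windows (9.52%), against 19.2% of the 14425 windows of genes measured here. A CCAAT box, CCAAT on either strand, occurred in 10 of 12 mitotic and 6 of 21 other windows, against 36.4% of all. Both elements occurred together in 9 mitotic kinesins and, of the others, in KIF5B alone, against 7.78% of all. E2F elements, spelled TTTCCCGC or TTTGGCGC, were found in KIF15 and KIF25 alone among the kinesin windows, against 3.11% of all. No match in the kinesin windows overlapped another, and TTTAAA, which reads the same on both strands, was counted once. In KIF22 only a CCAAT box matched, and in KIF2C only a CHR. The median GC content was 62.2% in the mitotic windows, 68.0% in the others and 63.0% over all genes, and its part in these shares was not tested.

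Positions were then compared. With base -1 just before the start and base 1 at it, all 11 mitotic kinesins with a CHR had 1 that began between base -60 and base 50. No other kinesin had a CHR there, and 5.85% of all windows did; this range was set after the positions were seen. Further upstream, KIF14 and KIF23 had a second CHR at bases -198 and -211, and the CHR of KIF16B began at base -241 and that of KIF5B at base -140. The CCAAT boxes of the mitotic kinesins began between bases -131 and -22. In 5 mitotic kinesins, KIF4A, KIF23, KIF18A, KIF20A and KIF11, both elements lay within the 150 bases before the start, and they are shown for that reason. The transport motors KIF5B, whose CHR is far upstream, and KIF3A, with no match, are shown for contrast. Each sequence is the 150 bases before the start, 5′ to 3′ on the gene's own strand, from RefSeq build GRCh38.p14, with CHR and CCAAT box matches in capitals (a CCAAT box on the opposite strand reads ATTGG, and a CHR on it TTCAAA).
KIF4A, chrX:70289954-70290103, plus strand: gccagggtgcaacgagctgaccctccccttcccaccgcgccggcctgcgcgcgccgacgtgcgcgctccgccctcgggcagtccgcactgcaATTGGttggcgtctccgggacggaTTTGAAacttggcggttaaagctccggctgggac
KIF23, chr15:69414199-69414348, plus strand: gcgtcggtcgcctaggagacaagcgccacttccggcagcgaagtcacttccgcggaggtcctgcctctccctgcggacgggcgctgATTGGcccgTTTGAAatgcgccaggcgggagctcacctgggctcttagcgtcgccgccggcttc
KIF18A, chr11:28108157-28108306, minus strand: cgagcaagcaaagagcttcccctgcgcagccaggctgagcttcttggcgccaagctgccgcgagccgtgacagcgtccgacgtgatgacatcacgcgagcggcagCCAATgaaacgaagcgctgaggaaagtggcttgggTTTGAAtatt
KIF20A, chr5:138178962-138179111, plus strand: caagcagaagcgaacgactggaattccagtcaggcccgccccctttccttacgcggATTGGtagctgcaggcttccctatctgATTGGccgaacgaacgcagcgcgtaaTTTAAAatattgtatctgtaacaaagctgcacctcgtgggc
KIF11, chr10:92592980-92593129, plus strand: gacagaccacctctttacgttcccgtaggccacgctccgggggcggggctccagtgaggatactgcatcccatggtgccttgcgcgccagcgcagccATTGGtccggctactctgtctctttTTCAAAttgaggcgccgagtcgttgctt
KIF5B, chr10:32056426-32056575, minus strand: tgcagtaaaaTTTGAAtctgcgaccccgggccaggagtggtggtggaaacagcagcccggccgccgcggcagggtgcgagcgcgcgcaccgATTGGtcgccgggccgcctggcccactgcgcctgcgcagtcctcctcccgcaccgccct
KIF3A, chr5:132737547-132737696, minus strand: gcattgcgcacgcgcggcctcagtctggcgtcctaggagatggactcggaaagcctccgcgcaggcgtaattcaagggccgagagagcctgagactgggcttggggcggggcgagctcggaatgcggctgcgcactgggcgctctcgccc
From the first base of the CCAAT box to the first base of the CHR downstream of it there were 24 bases in KIF4A, 25 in KIF11, 26 from the nearer box in KIF20A and 35 in KIF18A, but 9 in KIF23. In the 4 other mitotic kinesins with both elements, the distance from the nearest box upstream was 23 in KIF14, 34 in KIF18B, 50 in KIFC1 and 122 in KIF20B, so it was not uniform. A match is a string of letters in a window and does not show that a factor binds there.

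**Figure D1:**
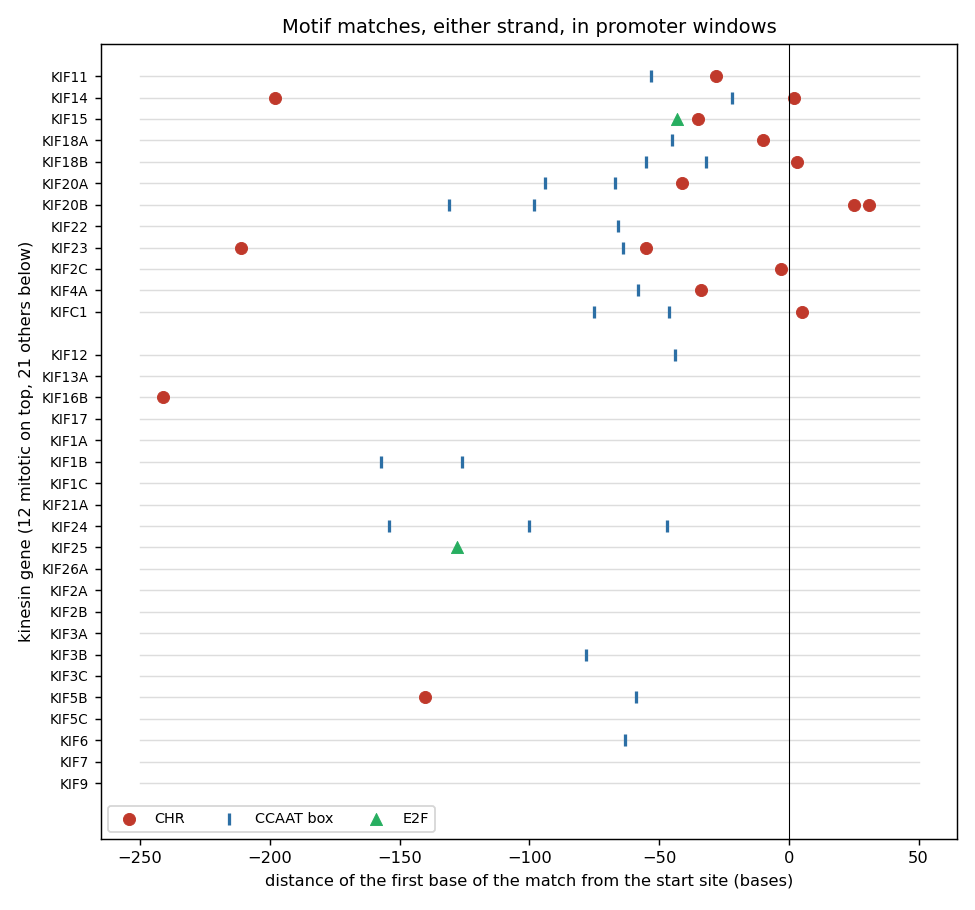
Positions of CHR (circles), CCAAT box (bars) and E2F (triangles) matches in promoter windows of 12 mitotic and 21 other kinesins, as distance in bases from the start site, which is the vertical line. In 11 of the 12 mitotic genes a CHR circle lies near the start, with further circles far upstream in KIF14 and KIF23; the 2 circles of the other kinesins, KIF16B and KIF5B, lie far upstream.

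The comparison asks whether kinesin messages differ between the miR-490 and the control arrays, and whether mitotic members differ from the rest. Values below are log2 expression of 1 probe set per gene, the one with the highest mean over the 4 arrays. Brightness depends on the probes, so levels were not compared between genes; a gene is called dim where its mean was at or below the median over genes, 5.84. No kinesin passed an adjusted p of 0.05 (limma with Benjamini-Hochberg adjustment over all genes), as 0% of all genes did, and the smallest adjusted p among kinesins was 0.786. At an unadjusted p under 0.05, KIF4A was higher with miR-490 and KIF2B lower, where 3.3% of all genes were higher and 2.88% lower at that level. The count of kinesins at that level was 2 as reported, 4 in a fit of genes above the median level alone, 1 without moderation of the variance or with probe sets averaged per gene, and 0 with the replicate number as a block or without either miR-490 array. An exact two-sided permutation test of a single gene can give no p below 0.333 in a design of this size. Every kinesin difference was small: the log2 fold changes ran from -0.27 to 0.21.

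As a group, 10 of the 12 mitotic kinesins had a higher mean in the miR-490 arrays, as did 50.1% of all genes. Their median log2 fold change was 0.088, against 0.005 over all genes. More cells in G2 and mitosis and more message per cell cannot be told apart in these bulk RNA samples. Of the 29 other kinesins, 18 had a higher mean, 10 a lower one and KIF2A the same, with a median of 0.030. In 6 of the 12 mitotic kinesins both miR-490 arrays lay above both control arrays, and in 0 both lay below; of all genes, 16.5% lay wholly above and 16.1% wholly below. Of the other kinesins, 5 lay wholly above and 4 wholly below. These group values are descriptions with no test, and the adjusted p values of single members are all far above the threshold.

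**Figure D2:**
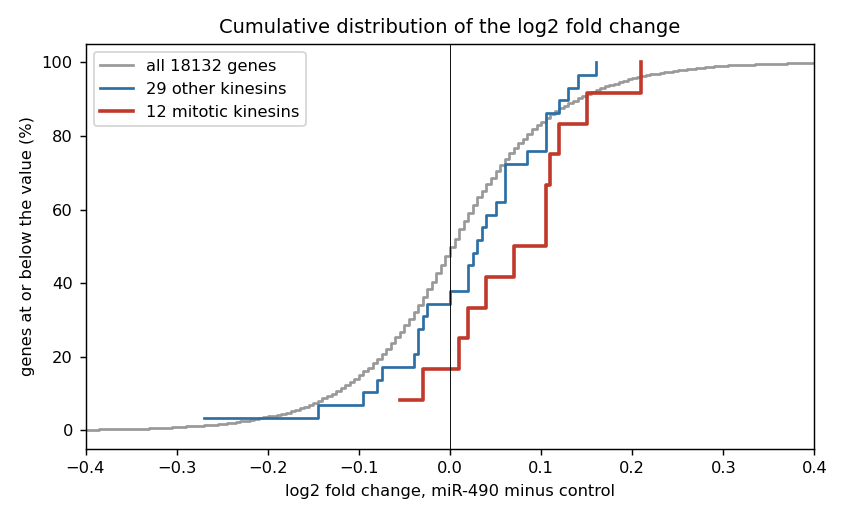
Cumulative share of genes, in percent, against the log2 fold change of miR-490 over control arrays, for 12 mitotic kinesins, 29 other kinesins and all 18132 genes. The mitotic curve lies to the right of the other 2 over most of the range, and its median is 0.088 against 0.030 for the other kinesins and 0.005 for all genes.

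Among the motors that move chromosomes, KIF4A had the largest difference of the mitotic set. KIF4A is a kinesin-4 chromokinesin that shapes chromosomes and, with PRC1, limits the length of midzone microtubules. Its values were 6.36 and 6.47 on control replicates 1 and 2 and 6.67 and 6.58 on miR-490 replicates 1 and 2. Both miR-490 arrays lay above both controls, at 1.16 times the control level (log2 fold change 0.21, SE 0.071, 95% interval 0.020 to 0.40, unadjusted p = 0.0365, adjusted p = 0.786, limma). The other probe set of KIF4A had a log2 fold change of 0.075, with overlapping groups.

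KIF18A, a kinesin-8 that damps chromosome oscillations on the metaphase plate, read 6.64 and 6.70 on the control arrays and 6.80 and 6.76 on the miR-490 arrays. Its groups did not overlap, and the log2 fold change was 0.11 (SE 0.058, adjusted p = 0.812, limma). KIF2C, the kinesin-13 also called MCAK, removes tubulin at kinetochores to correct wrong attachments. It read 7.47 and 7.64 in controls and 7.64 and 7.68 with miR-490, so the groups met at 7.64; its log2 fold change was 0.105 with either of its probe sets.

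KIF22, the chromokinesin Kid, which pushes chromosome arms away from the poles, read 6.58 and 6.63 in controls and 6.63 and 6.66 with miR-490. The log2 fold change was 0.040, and its other 2 probe sets gave 0.070 and 0.155. KIF18B, a kinesin-8 that shortens astral microtubules, was one of the 2 mitotic members with a lower mean: it read 6.49 and 6.62 in controls and 6.59 and 6.41 with miR-490. The miR-490 arrays of KIF18B were further apart than the group means, whose log2 difference was -0.055. A second probe set of KIF18B held the same 4 values, while its 2 remaining, dimmer sets gave 0.145 and 0.16.

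Of the motors of the midzone and cleavage furrow, KIF23, or MKLP1, forms the centralspindlin complex with RACGAP1. It read 5.85 and 5.80 in controls and 5.93 and 5.96 with miR-490, without overlap, a log2 fold change of 0.12 (SE 0.056, adjusted p = 0.786, limma). Its other, dimmer probe set gave -0.050 with overlapping groups, so the 2 sets of KIF23 differed in sign. KIF20A, or MKLP2, brings the chromosomal passenger complex to the midzone, and read 6.92 and 6.76 in controls and 6.94 and 6.95 with miR-490. The groups of KIF20A were separated by only the gap between 6.92 and 6.94, since the controls were far apart, and the log2 fold change was 0.105 (SE 0.075).

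KIF20B, a kinesin-6 needed for late cytokinesis, was dim and read 5.49 and 5.56 in controls and 5.59 and 5.60 with miR-490, a log2 fold change of 0.070 without overlap. KIF14, a kinesin-3 that recruits citron kinase to the furrow, was dim and the other member with a lower mean: 4.97 and 4.89 in controls, 4.94 and 4.86 with miR-490. The KIF14 values interleaved, with a log2 fold change of -0.030, and its other probe set gave 0.

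The motors that build the bipolar spindle covered a wide range. KIF15, a kinesin-12 that can hold the poles apart beside KIF11, read 5.87 and 6.04 in controls and 6.09 and 6.12 with miR-490. Its groups did not overlap, at a log2 fold change of 0.15 (SE 0.078, adjusted p = 0.812, limma). KIF11, the kinesin-5 Eg5, slides antiparallel microtubules to separate the poles and is the target of several mitotic inhibitors. It read 7.63 and 7.66 in controls and 7.69 and 7.62 with miR-490, a log2 fold change of 0.010 (95% interval -0.15 to 0.17). The dimmer second probe set of KIF11 read 4.98 and 5.16 in controls and 5.35 and 5.23 with miR-490, a difference of 0.22 without overlap. KIFC1, a kinesin-14 that pulls the poles inward and clusters extra centrosomes, read 6.24 and 6.03 in controls and 6.15 and 6.16 with miR-490, so both miR-490 values lay between the controls.

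**Figure D3:**
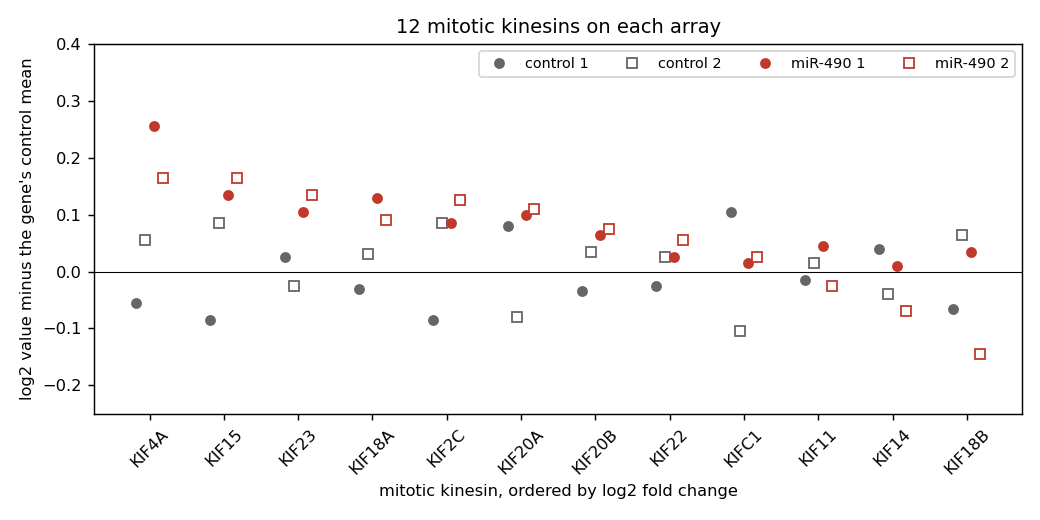
Log2 value of each of 12 mitotic kinesins on each array, minus that gene's control mean, for control arrays (grey) and miR-490 arrays (red), with circles for replicate 1 and squares for replicate 2. In 6 genes, KIF4A, KIF15, KIF23, KIF18A, KIF20A and KIF20B, both red points lie above both grey points, and in KIF18B the lowest point is a miR-490 array.

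Among the cargo motors, 8 of 13 genes had a higher and 5 a lower mean, with a median log2 fold change of 0.020. KIF5B, the ubiquitous heavy chain of conventional kinesin-1, read 10.80 on both control arrays and 10.78 and 10.77 with miR-490, a log2 fold change of -0.025 (95% interval -0.17 to 0.12). KIF1B, a kinesin-3 that carries mitochondria and synaptic vesicle precursors, read 9.09 and 9.10 in controls and 9.11 and 9.12 with miR-490. These differences of KIF5B and KIF1B, 0.98 and 1.01 times the control level, are well under the median standard error of 0.073. Even so, neither gene's groups overlap. The 3 other probe sets of KIF5B ranged from -0.075 to 0.020, and the 5 others of KIF1B from -0.295 to 0.23.

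KIF5A, the kinesin-1 of neurons, read 5.98 and 6.08 in controls and 6.15 and 6.23 with miR-490. Its log2 fold change of 0.16 (SE 0.068, adjusted p = 0.786, limma) was the highest of the 29 other kinesins, and its 3 other probe sets ranged from -0.020 to 0.22. KIF3A, a subunit of the kinesin-2 of cilia, lay on the other side, with 7.37 and 7.27 in controls and 7.20 and 7.15 with miR-490. Both miR-490 arrays of KIF3A lay below both controls, at 0.904 of the control level (log2 fold change -0.145, SE 0.065, adjusted p = 0.786, limma). Its 2 other probe sets gave values from -0.11 to 0.095.

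KIF3B and KIF3C, partners of KIF3A in kinesin-2 motors, had log2 fold changes of 0.020 and -0.035. KIF13B, a kinesin-3 also called GAKIN, read 7.95 and 8.03 in controls and 8.04 and 8.06 with miR-490, a log2 fold change of 0.060. The other, dimmer probe set of KIF13B gave -0.045 with overlapping groups. KIF13A, which carries recycling endosomes, was dim, read 5.10 and 5.25 in controls and 5.18 and 5.10 with miR-490, and its groups overlapped. The remaining cargo motors KIF5C, KIF1A, KIF1C, KIF16B and KIF17 had log2 fold changes from -0.080 to 0.105. In the sets used, only the groups of KIF5C did not overlap. The 4 other probe sets of KIF1A ranged from -0.070 to 0.275, and those at 0.22 and 0.275 did not overlap.

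Motors of microtubule ends and cilia had 4 higher means, 3 lower and 1 equal. KIF2A, a kinesin-13 that also depolymerises microtubules at spindle poles, read 7.78 and 7.77 in controls and 7.80 and 7.75 with miR-490, with equal group means. KIF2B, its relative, was also counted with the other kinesins by the fixed list. It gave the largest difference of any kinesin in the probe sets used but was very dim. The values were 2.61 and 2.79 in controls and 2.45 and 2.41 with miR-490, where the lowest value on any array was 1.72. Both miR-490 arrays of KIF2B lay below the controls (log2 fold change -0.27, SE 0.081, unadjusted p = 0.0249, adjusted p = 0.786, limma). KIF19, which sets the length of motile cilia, was dim, with 4.54 and 4.63 in controls and 4.61 and 4.77 with miR-490. KIF7, the hedgehog pathway regulator of the cilium tip, and KIF24, KIF27, KIF21A and KIF21B had overlapping groups and log2 fold changes from -0.040 to 0.13. The set used for KIF21A gave 0.060, while its 3 other sets ranged from -0.255 to -0.090.

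Of the remaining families, KIF25, a kinesin-14, was dim and read 3.33 and 3.38 in controls and 3.50 and 3.45 with miR-490, without overlap (log2 fold change 0.12, adjusted p = 0.796, limma). KIF9, a kinesin-9 of motile cilia, read 8.99 and 9.05 in controls and 8.97 and 8.88 with miR-490. It lay wholly below the controls at a log2 fold change of -0.095, and its 2 other, dimmer probe sets gave -0.19 and -0.080. KIF12, a kinesin-12 like KIF15, was dim and overlapped, with 5.56 and 5.78 in controls and 5.76 and 5.86 with miR-490. KIFC2, KIFC3, KIF6, KIF26A and KIF26B overlapped in the sets used, with log2 fold changes from -0.075 to 0.085. The 5 other probe sets of KIFC3 ranged from -0.14 to 0.155, and the set at 0.155 did not overlap.

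**Figure D4:**
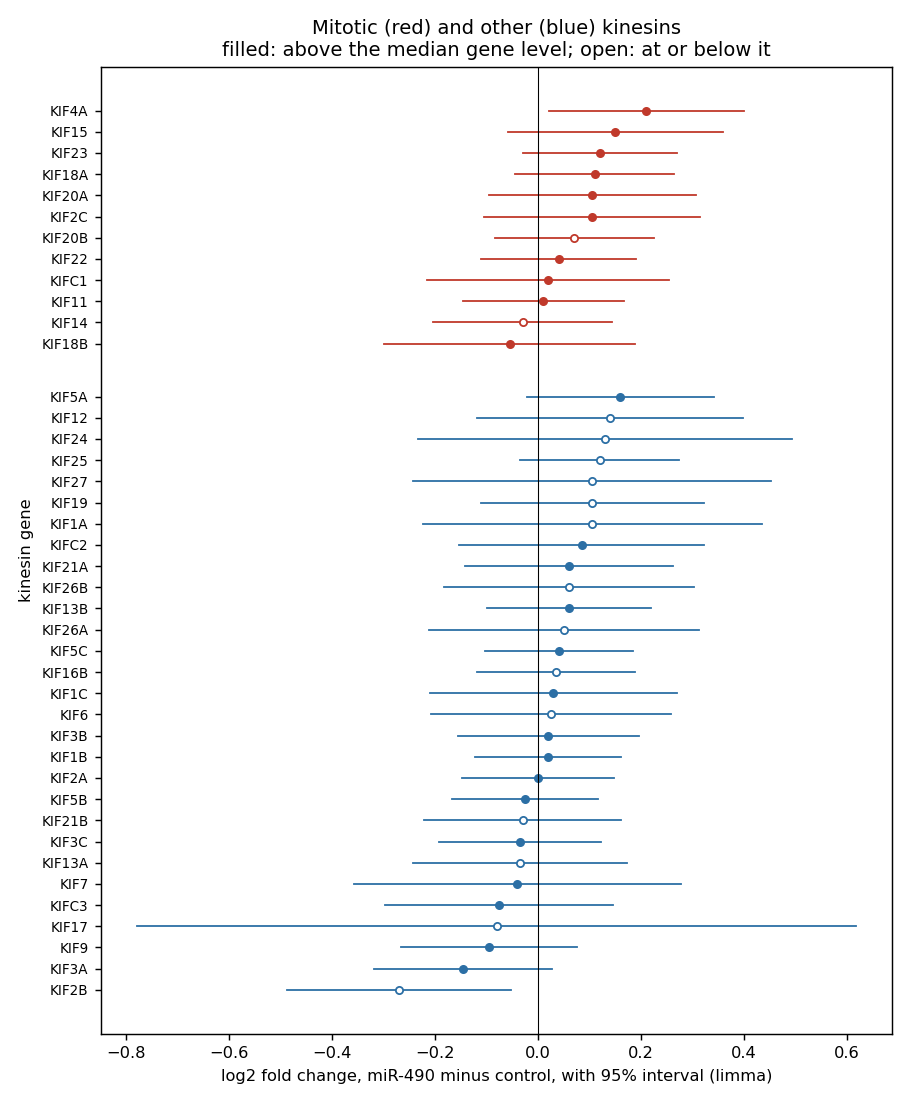
Log2 fold change, miR-490 minus control, with its 95% interval from limma for each of 12 mitotic (red) and 29 other (blue) kinesins; filled points are genes above the median gene level and open points are dim genes. In this fit the intervals of KIF4A and KIF2B alone leave out 0, and no kinesin passed the adjusted threshold.

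Brightness differed between the groups, as 10 of 12 mitotic and 15 of 29 other kinesins lay above the median gene. Among these brighter genes, 9 of 10 mitotic kinesins had a higher mean (median 0.105 on the log2 scale), as did 8 of 15 others (median 0.020). Of all genes above the median level, 47.0% had a higher mean, with a median of 0. Across the 101 kinesin probe sets, the median was 0.090 for the 22 mitotic sets, of which 17 were higher. It was 0.015 for the 79 others, of which 41 were higher. The KIF18B set used and another KIF18B set hold the same values. So 1 measurement is counted more than once here, and the sign agreement of that pair in the next counts was fixed. Agreement between probe sets of 1 gene was limited: of the 60 sets not used, 31 had the sign of the set used, 25 the opposite sign and 4 had no sign to compare.

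The difference between mitotic and other kinesins was set against the spread of single arrays. The median log2 fold change of the mitotic kinesins exceeded that of the others by 0.058. For the 4 pairings of a miR-490 with a control array, the mitotic median was higher than the other median by 0.020 to 0.070. Between the 2 control arrays the same quantity was -0.005, and between the 2 miR-490 arrays -0.040, so the smallest between-group value is smaller in size than the step between the miR-490 replicates. For the mitotic kinesins themselves, the median was 0.050 to 0.095 between groups, 0.055 from control replicate 1 to 2 and 0.010 from miR-490 replicate 1 to 2. Without control replicate 1 the mitotic median was 0.050 in place of 0.088, and the median of the others -0.005. Without miR-490 replicate 1 the difference of the medians was 0.028 in place of 0.058.

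**Figure D5:**
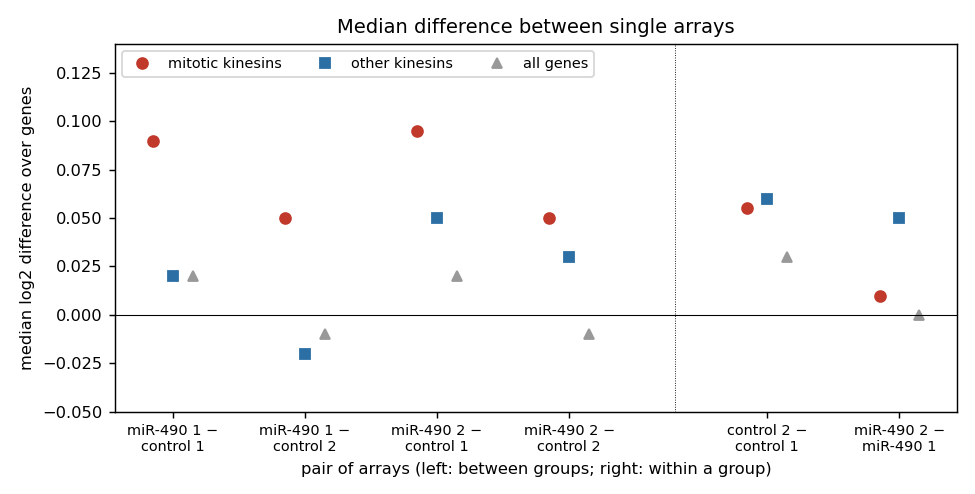
Median log2 difference over 12 mitotic kinesins, 29 other kinesins and all genes for single pairs of arrays; the 4 pairs left of the dotted line join a miR-490 with a control array, and the 2 on the right are replicates of 1 group. The mitotic median lies above the other 2 in each between-group pair, from 0.050 to 0.095, and the step from control replicate 1 to 2 is 0.055.

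Of 22 spindle and midzone genes whose products work beside mitotic kinesins, 19 had a higher mean, and their median log2 fold change was 0.090. Above the median gene level lay 21 of the 22, where 47.0% of all such genes had a higher mean. None passed the adjusted threshold (limma, 0 of 22), and SPAG5 and ASPM, 2 in all, were higher at an unadjusted p under 0.05, as were 3.3% of all genes. SPAG5, the spindle protein astrin, read 7.03 and 7.06 in controls and 7.33 and 7.32 with miR-490, and ASPM, a spindle pole protein, 7.94 and 8.04 against 8.29 and 8.18. Citron kinase, CIT, and DLGAP5, a spindle assembly factor, lay wholly above their controls at 1.12 and 1.11 times. Of the 22 spindle and midzone genes, 10 lay wholly above and 1, BUB1, wholly below, beside 16.5% and 16.1% of all genes. Of 22 proliferation markers and regulators of mitotic promoters, 16 were higher and 4 lower, with a median of 0.045; 0 passed the adjusted threshold (limma) and 3 were higher at an unadjusted p under 0.05, beside 3.3% of all genes. CENPE, the kinetochore kinesin that lies outside the symbol rule, read 7.24 and 7.39 in controls and 7.43 and 7.54 with miR-490, a log2 fold change of 0.17 (SE 0.082, adjusted p = 0.796, limma). MKI67 stood at 1.17, CCNB1 and CDC25C at 1.13 and CDC20 at 1.10 times the control level, each without overlap. Of the 22 proliferation markers and regulators, 6 lay wholly above their controls and 3, RBL1, RBL2 and TFDP1, wholly below. Over all genes these shares were 16.5% and 16.1%.

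Genes of transport were evenly divided. Of 25 dynein and dynactin genes, the machinery of minus-end transport, 11 were higher and 12 lower with a median of 0, and of 14 cargo adaptors 7 were higher and 7 lower, also with a median of 0. Among the dynein genes the smallest p was that of DYNC1I1, a dim gene at a log2 fold change of 0.215, and ACTR10 of dynactin stood at 0.927 of control. TRAK1, which links kinesin-1 to mitochondria, stood at 1.07 times. Of 8 motor genes and partners outside the symbol rule, 6 were higher, among them KLC4, a light chain of kinesin-1, at 1.11 times. This list also holds the kinetochore kinesin CENPE, given above, so it is not one of transport genes alone. Tubulins were 8 higher and 5 lower of 14, and TUBB2A read 10.84 and 10.69 in controls and 10.51 and 10.55 with miR-490, at 0.850 of control (unadjusted p = 0.0290, adjusted p = 0.786, limma). Tubulin genes are close copies, so probes may be shared between them.

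Whole arrays of different groups were as alike as replicates, with correlations across genes of 0.9982 to 0.9984 between groups, 0.9983 within the controls and 0.9985 within the miR-490 pair. As a rough check of the labelled cell type, VIM, FN1 and CD44 of mesenchymal cells lay above the median gene level. The glial and stem markers GFAP, OLIG2, S100B, SOX2 and NES lay at or below it. Also above it were 4 of 7 neuronal, 1 of 5 leukocyte, 0 of 4 epithelial and 1 of 4 endothelial markers. Since brightness depends on the probes, this does not rank the genes, and the check does not single out a cell type. Of 7 neuronal markers, 2 were higher and 5 lower, the median being -0.015 on the log2 scale; the leukocyte, epithelial and endothelial markers had medians of -0.135, -0.040 and 0.030 over 5, 4 and 4 genes, and 0 of these passed the adjusted threshold. At an unadjusted p under 0.05 CD3E and PTPRC, both dim and 2 of the 5 leukocyte markers, were lower among them, beside 2.88% of all genes.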

How the data were processed

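Total RNA from U87MG cells, 100 ng per array, was labelled with biotin and hybridised to 4 PrimeView arrays, 2 per group, per the labels' protocols. The authors deposited log2 values, 1 per probe set and array, made with RMA, per the submitters' processing notes; which program ran it was not given in the sources. RMA makes arrays alike, so a shift of most genes cannot be seen, and it compresses dim signals. Precision is limited by having 2 arrays per group.

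The platform annotation names 1 gene for 44988 of the 49293 probe sets, several for 1832 and none for 2473; 44961 took current symbols from the RefSeq gene table through their Entrez IDs. The brightest single-symbol probe set stood for each of 18132 genes, of which the 41 kinesins had 101 sets. Groups were compared with limma 3.58.1 in R 4.3.3 (lmFit and eBayes, no trend, no filter, 2 residual and 2.46 prior degrees of freedom). Tests were two-sided, p-values were adjusted over all genes by Benjamini and Hochberg's method, and the threshold was 0.05; the fit was tested on simulated data. Named with values on every array were the 12 mitotic kinesins, the 8 others with the smallest p, and KIF5B, KIF1B, KIF3A, KIF2A and KIF13A; of each gene list, up to 4 members with the smallest p. The members and lists were chosen with earlier results of these data known. Promoter windows came from RefSeq (GRCh38.p14), matched by symbol for 33 kinesins, the first window where a gene had several. Alternatives were quantile normalisation, centring, an intensity trend, the same trend under a robust prior, a filter on dim genes, other uses of probe sets, an unmoderated test, other memberships, a replicate block and each array left out. Figures were drawn with matplotlib 3.10.9.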

Additional observations from a re-analysis of the deposited data

How the results depend on the processing

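In each alternative run, 0 genes and 0 kinesins passed the adjusted threshold; limma as reported gave 1121 genes an unadjusted p under 0.05, and the unmoderated test 1036. Nor was any call made in 281 alternatives of the 24 named kinesins, of which 11 had the other sign, in KIF11, KIF13A, KIF14, KIF18B and KIFC1. The intensity trend with or without the robust prior, the unmoderated test, the replicate block and the filter on dim genes leave each gene's log2 fold change unchanged. No sign could change in those alternatives. Centring each array on its median, which takes off the shift of all genes, gave the mitotic median as 0.0725. With genes above the median level only, it was 0.105 and the difference from the other kinesins 0.085. With each array left out in turn, the mitotic median ranged from 0.050 to 0.0825 and that of the other kinesins from -0.005 to 0.055. The difference of medians ranged from 0.0275 to 0.075, and the count of higher mitotic kinesins was 9 to 12. These values need no assumption on spread. Any p-value of such a fit assumes that the remaining lone array has the other group's spread. Moving KIF14, KIF20B and KIF22 to neither group gave a difference of 0.075, leaving out KIF2A and KIF2B 0.0525, and keeping the brighter other kinesins alone, chosen after seeing the data, 0.0675. In the fit with a replicate block 0 genes passed, 892 had an unadjusted p under 0.05 and no call past the adjusted threshold changed. The difference of medians was 0.0575 as in the reported fit, since a block cannot change fold changes in this balanced design. Kinesins at an unadjusted p under 0.05 numbered 0 in that fit and without either miR-490 array, against 2 as reported. Same-numbered arrays showed no shared deviation (correlation -0.0265 across genes). RMA compresses dim signals in general, and its effect on the dim kinesins was not tested.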
